A study of Mus musculus with 6 samples.

Results

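The small leucine-rich proteoglycans are a family of secreted matrix proteins, and the 10 members described here are Kera, Fmod, Lum, Omd, Prelp, Dcn, Bgn, Aspn, Epyc and Ogn. They were found by gene symbol among the 22180 genes of the expression table, and all 10 were measured. Where several probe sets name a gene alone, the brightest one by its mean on the 6 arrays stood for the gene. The family, and its split into the keratan sulfate class (Kera, Fmod, Lum, Omd and Prelp) against Dcn and Bgn, was chosen by the difference between castrated and sham mice in these arrays, so the members' differences are given as a description without a test.

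RNA came from the tibialis anterior (the fast shin muscle that lifts the foot) of male C57Bl/6 mice aged 18 weeks. Of the 6 mice, 3 had been castrated and 3 sham-operated at 11 weeks of age, 7 weeks before sampling. The castrated samples carry the diet label refed and the sham samples the label fasted, so surgery and feeding label cannot be told apart. The series design has some mice refed for 30 minutes and all mice then without food for 4 hours, while the protocol attached to each sample has every mouse refed. No gene was deleted and no transgene or drug is named, and castration takes away androgen together with every other product of the testes. The labels name a mouse for each sample, and the SDs and p-values below measure the spread between these samples. The 7 fast-fibre and muscle markers checked, Acta1, Ckm, Myh4, Myh1, Tnnt3, Actn3 and Pvalb, all lay at or above the 99.8th percentile of mean level. Array medians lay between 5.04 and 5.10 on the log2 scale, and no array stood apart, with correlations of 0.990 to 0.992 within groups and 0.989 to 0.992 between them.

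Proteins of this family fold into a curved chain of leucine-rich repeats that binds collagen, and most carry glycosaminoglycan chains. Dcn and Bgn carry chondroitin or dermatan sulfate, whereas the class of Kera, Fmod and Lum can carry keratan sulfate. They set the spacing and diameter of collagen fibrils in tendon, skin and cornea, and in skeletal muscle they lie in the connective tissue sheaths and in the tendon at the fibre ends. Several of them also bind growth factors of the transforming growth factor beta family.

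The family is arranged in gene clusters. In the mouse gene table of assembly GRCm38.p6 Dcn, Lum, Kera and Epyc follow each other with 0 protein-coding genes between them. Ecm2, Aspn, Omd and Ogn also form a run with 0 genes between, as do Optc, Prelp and Fmod. Bgn stands apart from the other members. Promoter windows, 250 bases before to 50 after the annotated start, were matched in RefSeq for 8 of the 10 members, all but Lum and Dcn, with 2 windows for Epyc. Those of Kera and Fmod are shown because these genes had the largest differences, and that of Bgn is shown as a member of the other class. All are on assembly GRCm38.p6 and on the plus strand, at chr10:97606955-97607254 for Kera, chr1:134037004-134037303 for Fmod and chrX:73483351-73483650 for Bgn. Capitals mark the E-box CANNTG, the general site of basic helix-loop-helix factors such as the tendon factor Scx.
Kera promoter: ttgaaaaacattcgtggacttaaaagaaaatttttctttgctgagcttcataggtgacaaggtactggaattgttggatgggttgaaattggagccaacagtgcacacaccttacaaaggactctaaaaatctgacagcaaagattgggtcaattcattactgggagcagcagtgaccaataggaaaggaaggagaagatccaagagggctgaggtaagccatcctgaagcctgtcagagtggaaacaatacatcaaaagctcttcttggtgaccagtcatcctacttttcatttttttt
Fmod promoter: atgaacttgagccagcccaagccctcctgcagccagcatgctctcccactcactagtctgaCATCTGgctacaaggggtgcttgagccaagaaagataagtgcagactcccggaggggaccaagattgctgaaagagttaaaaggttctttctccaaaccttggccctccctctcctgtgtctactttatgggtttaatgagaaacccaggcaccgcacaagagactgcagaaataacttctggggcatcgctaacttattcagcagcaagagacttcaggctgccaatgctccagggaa
Bgn promoter: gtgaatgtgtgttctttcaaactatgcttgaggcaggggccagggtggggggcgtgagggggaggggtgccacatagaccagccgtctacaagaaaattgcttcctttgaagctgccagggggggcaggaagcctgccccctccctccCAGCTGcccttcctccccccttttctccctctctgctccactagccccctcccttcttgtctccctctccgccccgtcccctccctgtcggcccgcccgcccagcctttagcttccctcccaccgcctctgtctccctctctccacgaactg
The letters were searched on both strands for CANNTG, for the steroid receptor half-site TGTTCT, for the SMAD-binding letters CAGAC and for the TATA box letters TATAAA, and matches of different motifs could overlap. The Kera window held 0 matches of each. The Fmod window held 1 E-box, starting 189 bases before the start, and 2 CAGAC matches. The Bgn window held 1 E-box and 1 TGTTCT, 241 bases before the start. Among all 32851 windows of this length 72.3% held an E-box, 49.6% CAGAC, 19.0% TGTTCT and 13.6% TATAAA, so none of the matches is rare, and they are a description of letters only.

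Keratocan and fibromodulin were the members with the largest differences, both higher in castrated mice, while the other 8 members had differences under 0.2 in size on the log2 scale. Kera, keratocan, is a corneal proteoglycan that tendon also makes, and its deposited log2 values were 6.99, 7.22 and 6.89 in castrated samples 1 to 3 against 6.44, 6.09 and 5.89 in sham samples 1 to 3. All castrated samples lay above all sham samples, and the lowest castrated value stood 0.45 above the highest sham value. The means were 7.03 ± 0.17 in castrated and 6.14 ± 0.28 in sham samples (SD, n = 3 each), a log2 difference of 0.89 with a standard error of 0.15, or 1.85-fold. Ordered from the most raised, this was the 9th of the 22180 genes. With each sample left out in turn the Kera difference ran from 0.77, without sham sample 3, to 1.04, without sham sample 1.

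Fmod, fibromodulin, binds collagen type I and is abundant in tendon. Its values were 9.24, 9.10 and 8.77 in castrated samples and 8.97, 8.43 and 8.13 in sham samples. The groups overlap, since castrated sample 3 lay under sham sample 1. The means were 9.04 ± 0.24 in castrated and 8.51 ± 0.42 in sham samples (SD, n = 3 each), a log2 difference of 0.53 with a standard error of 0.21, or 1.44-fold. This size rests in part on 1 array, because the difference was 0.34 without sham sample 3 and 0.76 without sham sample 1. A second, dimmer Fmod probe set had values of 7.18, 7.03 and 6.78 in castrated samples and 7.20, 6.46 and 6.08 in sham samples. It differed by 0.41 (standard error 0.28), and its groups overlap too, with sham sample 1 the highest of the 6.

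**Figure D1:**
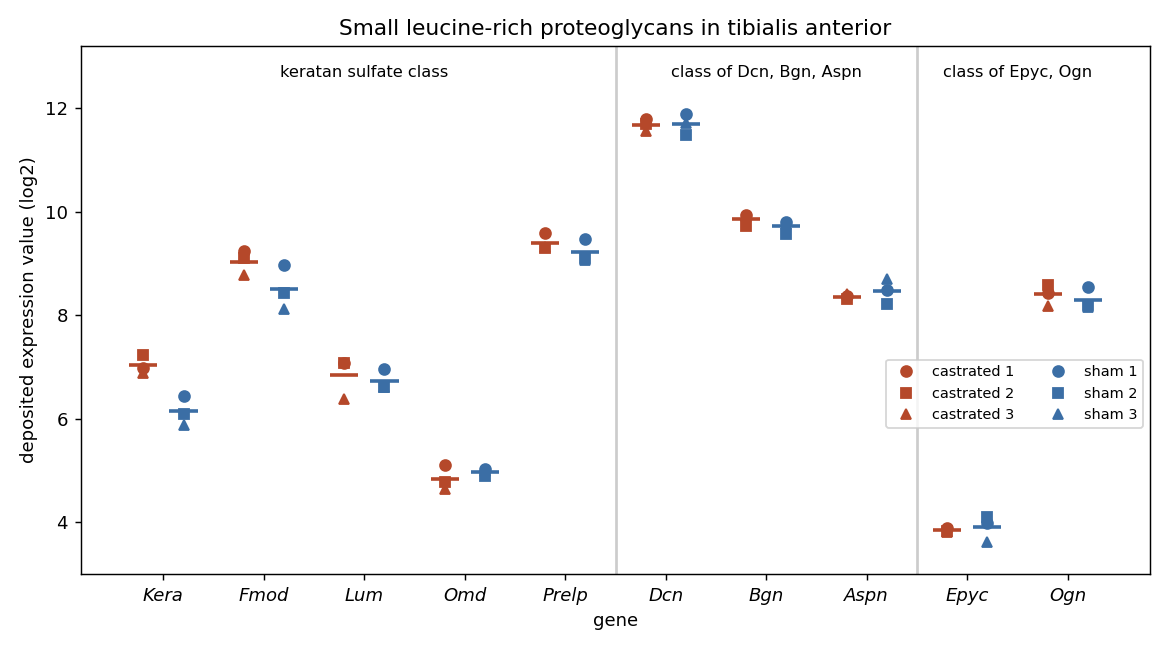
Deposited log2 value of each proteoglycan gene (x axis) in every sample, castrated in red on the left and sham in blue on the right of each pair, with symbols for sample numbers and bars for group means. The 3 castrated Kera values lie above the 3 sham values, and the groups overlap for the other 9 genes.

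The other genes of the keratan sulfate class showed small differences in both directions. Prelp, which binds collagen and heparan sulfate, had 9.59, 9.29 and 9.32 in castrated samples against 9.48, 9.11 and 9.08 in sham samples. That is a log2 difference of 0.18 (standard error 0.14), with castrated samples 2 and 3 under sham sample 1. A second, dim Prelp probe set differed by −0.13 (standard error 0.12), so the direction of Prelp depends on the probe set. Lum, lumican, regulates fibril diameter in cornea and skin and had 7.08, 7.07 and 6.39 in castrated samples against 6.96, 6.61 and 6.62 in sham samples. Castrated sample 3 was the lowest of all 6, and the difference of 0.12 (standard error 0.19) was 0.34 without it, −0.00084 without castrated sample 1 and 0.0028 without castrated sample 2. Omd, osteomodulin, is a bone proteoglycan and had 5.11, 4.78 and 4.64 in castrated samples against 5.03, 4.89 and 4.99 in sham samples. It differed by −0.13 (standard error 0.13), at the 38.4th percentile of mean level, and no background signal was at hand to set it against.

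Decorin was nearly level between the groups and biglycan slightly higher in castrated mice. Dcn, the decorin gene, encodes a collagen-binding proteoglycan that also binds transforming growth factor beta. Its values were 11.78, 11.69 and 11.55 in castrated samples and 11.88, 11.48 and 11.72 in sham samples, with all 3 castrated values inside the sham range. The difference was −0.015 with a standard error of 0.13, and it ran from −0.12 to 0.081 with a sample left out. Bgn, biglycan, takes part in the organisation of the muscle fibre membrane as well as of collagen. Its values were 9.94, 9.72 and 9.91 in castrated samples and 9.80, 9.58 and 9.76 in sham samples. The difference was 0.14 (standard error 0.11), and a second Bgn probe set differed by 0.18 (standard error 0.10), with all of its castrated values, the lowest 6.97, above all sham values, the highest 6.92.

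Aspn, asporin, is a relative of Dcn and Bgn that has no glycosaminoglycan chain. It had 8.37, 8.30 and 8.41 in castrated samples against 8.49, 8.22 and 8.69 in sham samples, a difference of −0.11 (standard error 0.13). Its castrated samples were close together, at an SD of 0.054, and sham samples wider, at 0.24. Ogn, osteoglycin or mimecan, had 8.44, 8.59 and 8.19 in castrated samples against 8.54, 8.20 and 8.16 in sham samples, a difference of 0.11 (standard error 0.14). Epyc, epiphycan, is a proteoglycan of growth plate cartilage. It had 3.89, 3.84 and 3.82 in castrated samples against 3.99, 4.11 and 3.62 in sham samples. This is the 18.0th percentile of mean level, where an array measures little, and the difference was −0.053 (standard error 0.13).

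Of the 10 members, 6 had a higher and 4 a lower mean in castrated mice, and the median difference was 0.11 (0.0077 without castrated sample 2), beside −0.0056 over all genes. Limma, a linear model with moderated variances fitted across all genes, called 0 of the 10 at a Benjamini-Hochberg adjusted p under 0.05, where it called 0.0135% of all genes. At an unadjusted p under 0.05 it counted 2 members, Kera and Fmod, beside 7.13% of all genes (3.62% higher in castrated mice and 3.51% lower). The groups did not overlap for 1 member, Kera, beside 12.8% of all genes (5.73% higher in castrated samples and 7.02% lower). In a fit on the brighter genes only, from the 50th percentile of mean level upward, 1 of the 8 members still tested was called, Kera, beside 0.144% of the 11090 genes in that fit. Since this contrast chose the family, nothing is read from these counts. The sign held with each sample left out in turn for 6 of the 10 members, and it did not for Lum, Dcn, Aspn and Epyc.

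**Figure D2:**
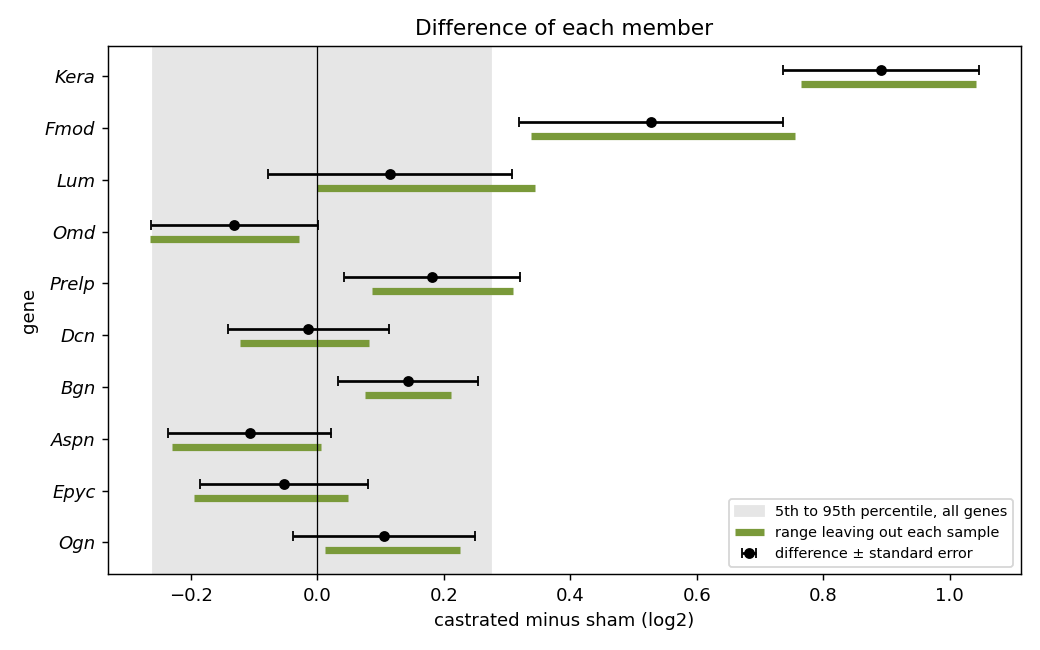
Castrated minus sham difference of each member on the log2 scale (points, with limma standard errors), with the range over leaving out each sample in green and the 5th to 95th percentile of all genes in grey. Kera at 0.89 and Fmod at 0.53 lie outside the grey band of −0.26 to 0.27, and the other 8 members lie inside it.

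Within the cluster of Dcn, Lum, Kera and Epyc the neighbouring genes had unlike differences, −0.015, 0.12, 0.89 and −0.053. In the run of Aspn, Omd and Ogn they were −0.11, −0.13 and 0.11, and Ecm2, the gene beside Aspn that encodes another leucine-rich matrix protein, differed by 0.13 (standard error 0.12, limma adjusted p = 0.851). Fmod and its neighbour Prelp differed by 0.53 and 0.18.

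Set against decorin within each sample, Kera and Fmod both separated the groups. This contrast chose the family and its split, and these members had the largest differences, so the separation is a description only. Kera minus Dcn was −4.80, −4.47 and −4.66 in castrated samples and −5.44, −5.38 and −5.83 in sham samples on the log2 scale, a change of 0.91 (standard error 0.17). Fmod minus Dcn was −2.55, −2.59 and −2.78 in castrated samples and −2.92, −3.04 and −3.59 in sham samples, a change of 0.54 (standard error 0.22). Neither pair of groups overlaps, whereas Fmod alone did. For Fmod this depends on the probe set and on the gene it is set against. Its groups overlap with the dimmer Fmod probe set in place of the brighter one, and also with Bgn in place of Dcn. How many of all genes separate the groups when set against Dcn was not counted.

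The keratan sulfate class as a whole did not separate the groups. The mean of its 5 genes minus the mean of Dcn and Bgn was −3.26, −3.21 and −3.53 in castrated samples and −3.47, −3.50 and −3.80 in sham samples. Castrated sample 3 lay under sham samples 1 and 2, and the change was 0.25 (standard error 0.14). Without Kera the change was 0.11 (standard error 0.14), and without Kera and Fmod it was −0.0092 (standard error 0.12). Kera and Fmod were left out because they had the largest differences, so a smaller class value follows from that choice. The class change was 0.15 without sham sample 3 and 0.35 without castrated sample 3.

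**Figure D3:**
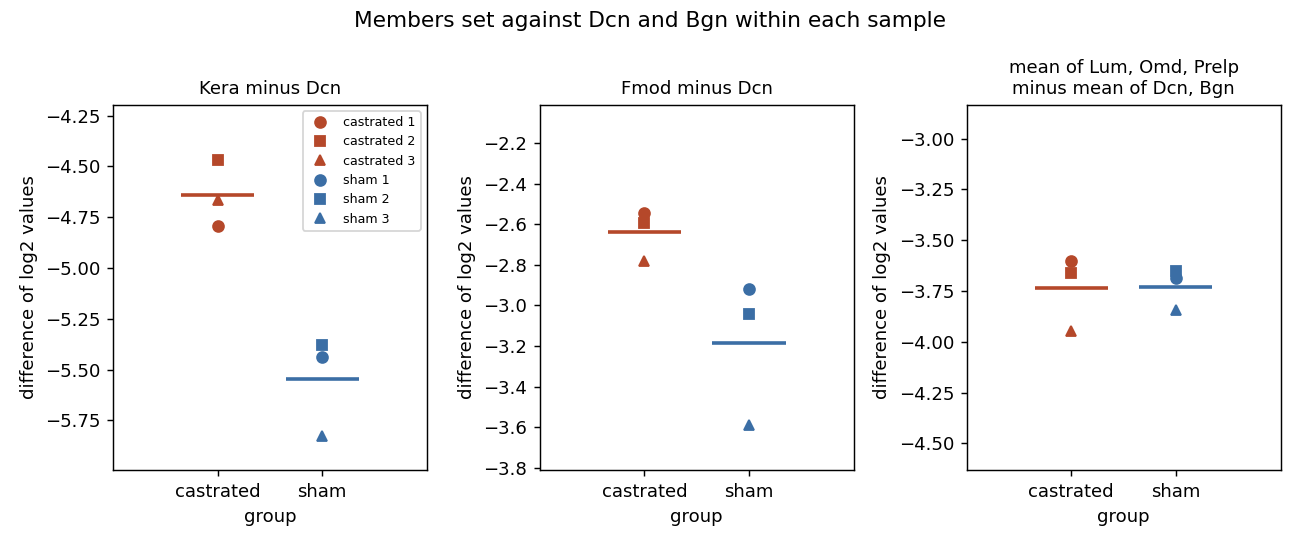
Log2 value of Kera (left) and of Fmod (middle) minus that of Dcn, and the mean of Lum, Omd and Prelp minus the mean of Dcn and Bgn (right), in each castrated (red) and sham (blue) sample, with bars for group means and y axes of equal length. The groups are apart in the left and middle panels and overlap in the right panel, where the means differ by −0.0092. The middle panel uses the brighter Fmod probe set. With the dimmer one, or with Bgn in place of Dcn, the groups overlap.

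Samples of a group ranked alike for many members. Sham sample 1 was the highest sham sample for 8 of the 10 members, all but Aspn and Epyc, and castrated sample 1 the highest castrated sample for 7. Castrated sample 3 was the lowest castrated sample for 7 members. How many of all genes have such an order was not counted. It was not particular to the members. The tendon and fibroblast marker means described below were also highest in sample 1 of each group and lowest, among castrated samples, in sample 3. The within-group SD was 0.34 for Fmod, 0.31 for Lum, 0.23 for Kera and 0.12 for Bgn. Likeness to other genes was measured as Pearson r over the 6 arrays after the group mean was subtracted, among 5100 brighter and more variable genes. With so few arrays, values near 1 are found for many genes among so many candidates. Most like Kera were Postn (r = 1.000), which encodes the matrix protein periostin, Antxr1 (r = 0.998), which encodes a collagen-binding receptor, and Bod1 (r = 0.995). Most like Fmod were Gadd45b (r = 0.996), Tmem115 (r = 0.995) and Crispld2 (r = 0.994). Most like Lum were Mrps16 (r = 0.999), the collagen VI gene Col6a3 (r = 0.995) and Klc4 (r = 0.993), and most like Dcn were Tmc4 (r = 0.996), Ifngr1 (r = 0.995) and Scd1 (r = 0.995). Of these 12 genes none passed the threshold between castrated and sham mice, the smallest limma adjusted p being 0.691 for Postn (log2 difference 0.27).

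Tendon markers varied in the same direction as Kera and Fmod. Of 9 tendon markers outside the family, 8 had a higher mean in castrated samples, with a median log2 difference of 0.37 and 0 past the threshold. Mkx, a tendon transcription factor, differed by 0.52 (standard error 0.15, limma adjusted p = 0.596), with no overlap between groups. The cartilage and tendon matrix gene Comp differed by 0.48 (standard error 0.19, limma adjusted p = 0.685), or 0.31 without castrated sample 1, and the tendon transcription factor Scx by −0.043 (limma adjusted p = 0.952). The mean log2 level of the 9 was 7.00, 6.84 and 6.55 in castrated samples and 6.70, 6.47 and 6.20 in sham samples, so castrated sample 3 lay under sham sample 1 as it did for Fmod. Mkx lay at the 42.3rd percentile of mean level, and no background signal was at hand to set it against. In a whole muscle, more cells of a type and more RNA per cell cannot be told apart, and the part of tendon tissue in the Kera and Fmod differences was not tested.

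Kera and Fmod were also set against that tendon marker mean within each sample. Kera minus the tendon marker mean was −0.0075, 0.38 and 0.34 in castrated samples and −0.25, −0.37 and −0.31 in sham samples, a change of 0.55 (standard error 0.13) with no overlap. Kera alone separated the groups already, and how many of all genes do so on this scale was not counted. Fmod minus the same mean was 2.24, 2.26 and 2.22 in castrated samples and 2.27, 1.97 and 1.92 in sham samples, a change of 0.19 (standard error 0.11), with sham sample 1 the highest of all, so its groups overlap here as they do without the tendon mean. Lum changed by −0.22 (standard error 0.14) on this scale, with overlap. Dcn changed by −0.35 (standard error 0.16), and its highest castrated and lowest sham values were level at 5.01. By the likeness measure above, over the 6 arrays, Fmod had r = 0.961 with the tendon marker mean and Kera had 0.773. With the mean of 11 fibroblast markers Fmod had r = 0.953 and Kera 0.748. Such likeness was not particular to Kera and Fmod. With the tendon mean, Lum had r = 0.847, Ogn 0.819, Prelp 0.808, Omd 0.645, Epyc 0.627 and Dcn 0.567. Bgn had 0.059 and Aspn −0.42.

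**Figure D4:**
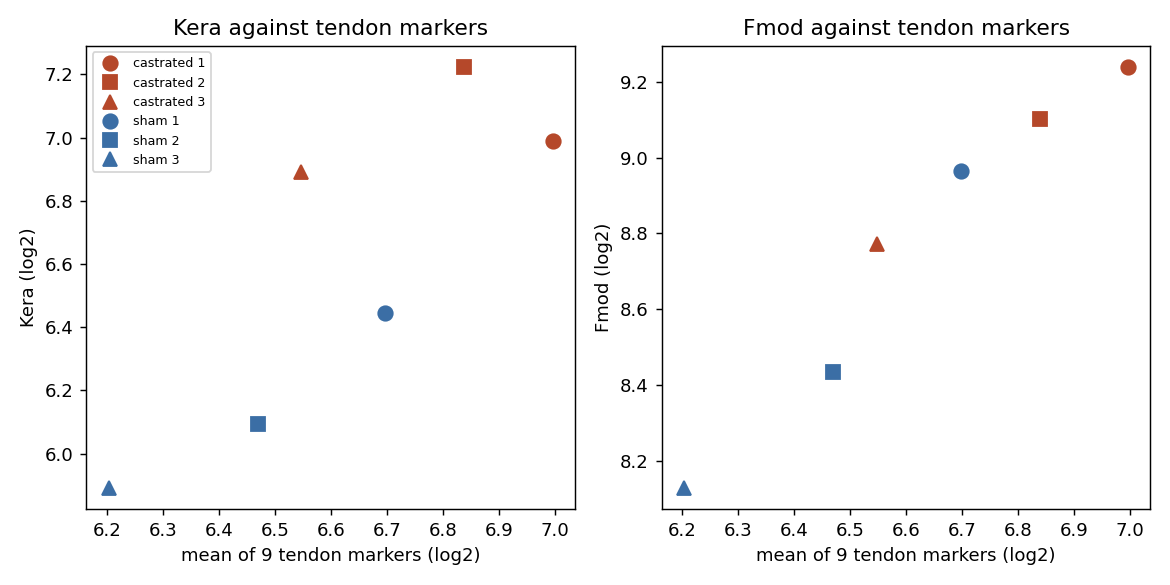
Log2 value of Kera (left) and Fmod (right) in each sample against the mean log2 value of 9 tendon markers, castrated in red and sham in blue. The 6 samples have the same order by Fmod as by the tendon mean, and the Kera values of castrated samples all lie above those of sham samples. Only castrated sample 3, at a tendon mean of 6.55, lies within the sham range of 6.20 to 6.70. Castrated samples 1 and 2 have higher tendon means than any sham sample.

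Among the other marker lists, only adipocyte markers had mean levels that did not overlap between the groups. They were higher for 5 of 6, with a median of 0.22 and a mean level of 6.34 to 6.41 in castrated and 5.97 to 6.26 in sham samples. Of those, Lep, at the 25.7th percentile of mean level and with overlapping groups, differed by 0.51, or 0.24 without sham sample 2. Cidec differed by under 0.001, 0 of the 6 passed the threshold, and their part in the Kera difference was not tested. Of 11 measured fibroblast markers 3 were higher and 8 lower in castrated samples, with a median of −0.054 and 0 past the threshold, and their mean level was 7.79 to 8.06 in castrated and 7.88 to 8.24 in sham samples. The extremes were Serpinf1 at 0.20 and Pi16, a marker of adventitial fibroblasts, at −0.49 (limma adjusted p = 0.583). Of 8 cartilage and bone markers 5 were higher and 3 lower, with a median of 0.037 and a mean level of 4.74 to 4.88 in castrated and 4.79 to 4.86 in sham samples. The extremes there were Ibsp at 0.18, a dim gene at the 19.8th percentile of mean level, and Sox9 at −0.26. Endothelial (median 0.031), mural (0.021), macrophage (−0.16) and Schwann cell markers (0.026) also had 0 genes past the threshold, and their mean levels overlapped between the groups. Extremes of these 4 lists were Emcn (0.34) and Cldn5 (−0.65), Rgs5 (0.15) and Myh11 (−0.072), Cd68 (0.038) and Cd14 (−0.36), and S100b (0.21) and Mbp (−0.048).

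Genes that build, modify, bind or cleave these proteoglycans were examined as 8 lists with 83 distinct measured genes of 92. Of these, 0 passed the limma adjusted threshold, and the smallest adjusted p was 0.449. At an unadjusted p under 0.05 there were 7, or 8.43%, of which 5 were higher and 2 lower, beside 7.13% of all genes. Their median difference was 0.050.

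Of 7 other leucine-rich matrix genes measured, 6 were higher and 1 lower, with a median of 0.12. Chad, chondroadherin, which binds collagen in cartilage and tendon, had 7.88, 7.56 and 6.66 in castrated samples against 7.22, 6.76 and 6.13 in sham samples. It is also 1 of the 9 tendon markers. Castrated sample 3 lay under sham samples 1 and 2, and the difference of 0.66 (standard error 0.34, limma adjusted p = 0.745) was 0.37 without sham sample 3 and 1.02 without castrated sample 3. Podn, podocan, differed by 0.21 (standard error 0.10, limma adjusted p = 0.728), with castrated samples all above sham samples.

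Keratan sulfate enzymes were split in direction. Of 7 genes of its synthesis 3 were higher and 4 lower, with a median of −0.064. Chst2, a sulfotransferase that adds sulfate to N-acetylglucosamine, had 6.01, 5.57 and 6.13 in castrated samples against 5.38, 5.63 and 5.42 in sham samples. It differed by 0.42 (standard error 0.15, limma adjusted p = 0.668), and castrated sample 2 lay under sham sample 2. The galactosyltransferase B4galt4 differed by 0.24 (limma adjusted p = 0.750) and the keratan sulfate galactose sulfotransferase Chst1 by −0.11 (limma adjusted p = 0.866). Of the degrading enzymes 2 of 5 were measured, Galns at 0.13 and Hexa at −0.14. Chondroitin and dermatan sulfate synthesis had 10 of 19 measured genes higher and 9 lower, with a median of 0.0056. Those with the smallest p were the kinase Fam20b (−0.24), the linker galactosyltransferase B4galt7 (0.25) and the sulfotransferase Ust (−0.21), at limma adjusted p of 0.716 to 0.786.

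Collagens, the main ligands of the family, had 13 of 14 genes with a higher mean in castrated samples, with a median of 0.18. Col14a1, a collagen on the fibril surface, had 5.93, 5.99 and 5.81 in castrated samples against 5.57, 5.41 and 5.28 in sham samples. Its groups did not overlap, and it differed by 0.49 (standard error 0.11, limma adjusted p = 0.449). Col1a1, a chain of the main fibril collagen, had 10.12, 9.75 and 8.94 in castrated samples against 9.23, 8.71 and 8.25 in sham samples. Like Fmod it had castrated sample 3 under sham sample 1, and it differed by 0.87 (standard error 0.31, limma adjusted p = 0.668), or 0.61 without castrated sample 1 and 1.20 without castrated sample 3. The partner chain Col1a2 differed by 0.61 (standard error 0.25, limma adjusted p = 0.687), or 0.40 without castrated sample 1 and 0.86 without castrated sample 3.

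Collagen crosslinking and processing genes were split, with 10 of 15 higher, 5 lower and a median of 0.070. Loxl1, a lysyl oxidase, differed by −0.34 (standard error 0.12, limma adjusted p = 0.668), with castrated samples all under sham samples. Adamts3, a procollagen protease at the 38.4th percentile of mean level, differed by 0.36 (limma adjusted p = 0.744), with castrated sample 1 the lowest of all 6. Its difference was 0.58 without that sample and 0.22 without castrated sample 2. Proteases known to cleave members of the family were lower for 5 of 8, with a median of −0.22. Mmp14, the membrane protease that cleaves collagen and lumican, had 7.11, 7.12 and 7.27 in castrated samples against 7.77, 7.60 and 7.32 in sham samples. Its groups did not overlap, and it differed by −0.40 (standard error 0.13, limma adjusted p = 0.658). Mmp3, stromelysin, differed by −0.37 (limma adjusted p = 0.744), or −0.19 without sham sample 1, with overlapping groups and a mean level at the 23.0th percentile. Bmp1, which trims procollagen and the propeptides of Dcn, Bgn and Ogn, differed by 0.26 (standard error 0.12, limma adjusted p = 0.700) with castrated samples all above sham samples.

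Signalling partners of decorin and biglycan had 4 of 12 genes higher and 8 lower, with a median of −0.020. Mstn, the growth inhibitor myostatin, which decorin can bind, differed by 0.39 (standard error 0.22, limma adjusted p = 0.762), or 0.12 without castrated sample 3 and 0.53 without castrated sample 2. Kdr, a vascular growth factor receptor, differed by 0.12 (limma adjusted p = 0.843) and Tlr2, a receptor for biglycan, by −0.11 (limma adjusted p = 0.851).

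**Figure D5:**
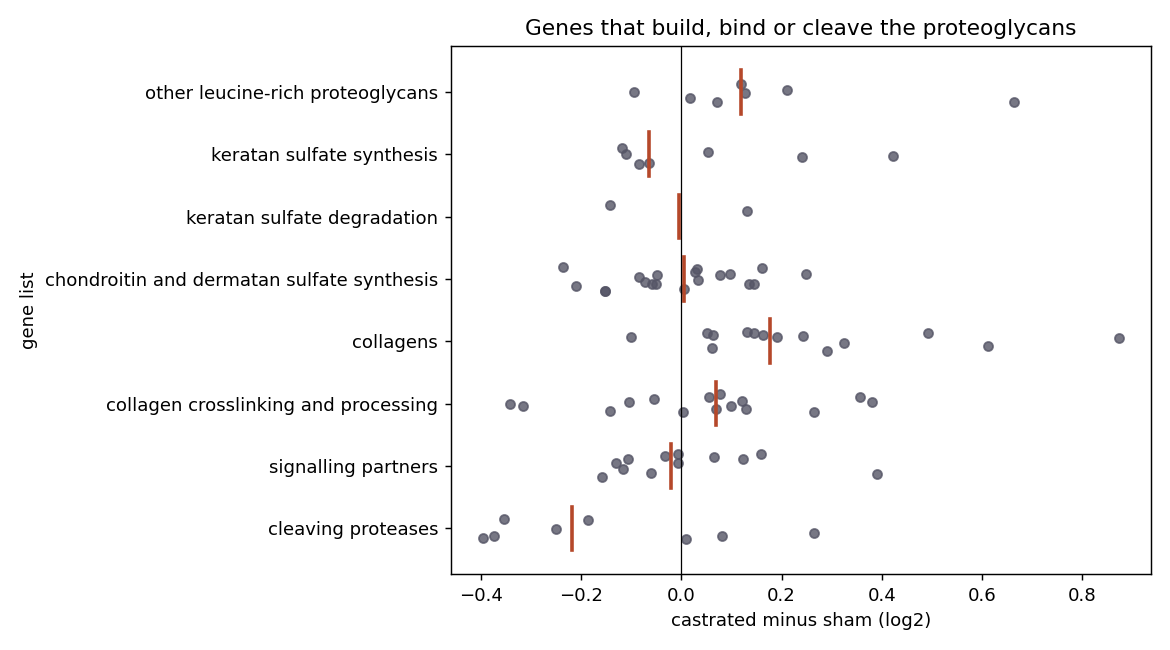
Castrated minus sham difference (log2) of each measured gene on the 8 lists of related genes, with a red bar at each list's median; points are spread vertically so that they can be seen. The collagen median is 0.18 and that of the cleaving proteases, some of them dim, −0.22, and no gene passed the adjusted threshold.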

How the data were processed

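Biotin-labelled RNA (300 ng, from about 25 mg of muscle) was hybridised to Affymetrix whole-transcript arrays, per the labels' protocols. The authors deposited log2 values per probe set, already normalized; Partek is named, without a version, in the submitters' processing notes, and how probes were corrected, summarized and normalized is not given in the sources used here. Normalization that forces arrays to match can shrink differences among very dim or very bright genes. Arrays have no read depth, and their number limits the precision.

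Of 41345 probe sets, 23521 carry 1 gene symbol, 1814 several and 16010 none. Symbols were updated through Entrez identifiers (23328 matched). Limma 3.58.1 (R 4.3.3) was run with lmFit and eBayes for castrated minus sham, without covariates or filter, on all 22180 genes. P-values were adjusted by Benjamini-Hochberg with a threshold of 0.05, and the fit was tested on simulated data. Standard errors of genes are from this fit. Those of second probe sets are from a fit of all probe sets, where the brighter Fmod probe set had 0.23. Those of a gene or class mean set against another gene or mean are pooled from the 2 group SDs, without moderation. Related genes are named by the 3 smallest p of each list and markers by their extremes, and Mmp13 and Adamts4 are named for their low level. The members, lists and rules were chosen with earlier results of these data known. Of 3 blood markers listed, 0 were among the 22180 genes, so blood could not be described. Alternatives were other normalizations, filters at the 25th and 50th percentile, other probe set rules, variance priors, array weights, the replicate number as a block and leaving out each sample. Over all genes, same-numbered samples' deviations correlated at 0.033 to 0.076, so the numbers were not taken as pairs. The tendon marker mean and Fmod nevertheless fell from sample 1 to sample 3 in both groups. With the replicate number as a block the standard error was 0.12 for Fmod (0.21 without) and 0.14 for Kera (0.15 without). Limma adjusted p in that fit was 0.572 for Fmod and 0.444 for Kera.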

Additional observations from a re-analysis of the deposited data

How the results depend on the processing

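The number of genes called over all genes, 3, was 9 in a fit on genes from the 25th percentile of mean level upward and 16 from the 50th upward. It was 10 with a trended robust variance prior, 1 when all probe sets were tested singly, and 0 with no variance moderation. With the replicate number as a block it was 2, and with each sample left out it ran from 3 to 4. Among the family, Kera was called with the filter at the 50th percentile and no member under the other 16 alternatives. Related genes called were 0 under all 17 alternatives. Over the alternatives other than leaving out a sample, the Kera difference ran from 0.85 to 0.91, Fmod from 0.45 to 0.57 and Dcn from −0.052 to 0.0079. The median of the family ran from 0.0077, without castrated sample 2, to 0.21, without sham sample 1, and the keratan sulfate class minus Dcn and Bgn from 0.15 to 0.35. The class value could not be had with the filter at the 50th percentile, which removes Omd. With 3 arrays a group, differences the size of most members' lie within their standard errors.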
